A study of Mus musculus with 12 samples.

Results

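This account covers 10 genes: tyrosine phosphatases that act on T cell receptor (TCR) signalling, and their close partners. They were chosen by name (Ptpn22, Ptpn11, Ptpn6, Ptpn2, Ptpn7, Ptpn12, Ptprc, Ptprcap, Ubash3a and Ubash3b) from 55335 gene rows. The rule itself uses no measured value, but the choice was made with earlier results of these data known. The data come from thymocytes, the T cell precursors of the thymus. The mice were 6 weeks of age and either wild type (WT) or, by their labels, knockout (KO) for miR-181a/b-1, a pair of neighbouring microRNA genes. All samples were strained and put into cycloheximide, which stalls ribosomes. RNA-seq measured the level of each mRNA, and ribosome footprinting measured the fragments covered by ribosomes, giving 4 groups of 3 libraries. The labels give neither strain, sex nor the way the deletion was made, they name no sort of thymocyte stages, and they do not say which RNA-seq and footprint libraries share a mouse.

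Phosphorylation of tyrosines on the TCR complex, begun by the kinase LCK and passed on by ZAP70, starts the T cell response, and tyrosine phosphatases reset it. Not all of these phosphatases only reset it, and CD45, the product of Ptprc, also opens LCK for action by removing an inhibitory phosphate. miR-181a is abundant in thymocytes that carry both CD4 and CD8, and it is known for raising their sensitivity to antigen by holding down phosphatases, among them those encoded by Ptpn22 and Ptpn11. The design therefore asks whether these known targets are higher once the pair is deleted, and whether their relatives differ too.

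The sequences below show what the deletion removes and why related microRNAs can act on the same sites. The 4 mature microRNAs of the family share the seed, bases 2 to 8 from the 5′ end, which is in capitals and pairs with the target. All were taken from RefSeq (GRCm38.p6).
mmu-miR-181a-5p: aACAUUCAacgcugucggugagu
mmu-miR-181b-5p: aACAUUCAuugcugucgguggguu
mmu-miR-181c-5p: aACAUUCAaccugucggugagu
mmu-miR-181d-5p: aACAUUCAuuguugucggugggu
The seed pairs with the DNA letters TGAATGT in a target. From base 1 at the 5′ end of miR-181a-5p, miR-181b-5p differs by A9U, C10U and A21G and is longer by its last base, so the shared seed is untouched. The deleted pair lies on chromosome 1, plus strand, and its hairpin precursors are shown with the mature 5p strand in capitals.
Mir181a-1, chr1:137966455-137966541: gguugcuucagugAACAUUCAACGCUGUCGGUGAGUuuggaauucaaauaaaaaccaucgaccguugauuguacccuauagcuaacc
Mir181b-1, chr1:137966639-137966718: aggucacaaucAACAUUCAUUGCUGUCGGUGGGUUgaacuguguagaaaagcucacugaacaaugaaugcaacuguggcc
The same mature miR-181a-5p and miR-181b-5p are also encoded by Mir181a-2 and Mir181b-2 on chromosome 2, outside the deletion.

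Reads assigned to genes numbered 4479182 to 8180286 per RNA-seq library and 4069968 to 17859770 per footprint library, with KO replicate 3 the shallowest of the latter. Levels are in CPM, counts per 1e6 reads in genes after TMM scaling of the libraries. Footprints at Mir181a-1 averaged 148 CPM (SD 16.8, n = 3) in WT against 0.828 CPM (SD 0.317, n = 3) in KO, which checks the footprint labels. In RNA-seq that row was low in both genotypes, with 57 reads in WT and 67 in KO, so it does not check the RNA-seq labels, and genotypes there are as labelled. Thymocyte markers were present throughout: all 9 on the list (among them Cd3e, Cd4, Cd8a and Rag1) were detected in both assays, and their summed level was 12554 to 14299 CPM in WT and 12233 to 13594 CPM in KO RNA-seq. Of the markers of B cells, myeloid, erythroid, epithelial, fibroblast and endothelial cells and of mature T cells, 0 were called in either assay once replicate numbers entered the model as a block. Without the block, 2 of 5 mature T cell markers, Ccr7 and Klf2, were called lower in RNA-seq, and summed erythroid markers were 63.6 to 75 CPM in WT and 38.8 to 47.3 CPM in KO RNA-seq. Of the 9 thymocyte markers, 0 were called in RNA-seq. In footprints without the block, Cd4 and Themis were called higher and Rag1 and Ptcra lower. Their log2 fold changes were 0.57, 0.23, -0.30 and -0.37, in that order (edgeR FDR 0.00335 to 0.0326). Only Cd4 was called with the block. In a bulk sample, fewer cells of a type and less RNA per cell cannot be told apart.

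The deposited counts have a property that touches every test below. Where a WT library lay above its group mean for a gene, the same-numbered KO library lay below its own, with correlations across genes of -0.98 to -0.96 in RNA-seq (9069 genes) and -0.99 in footprints (8149 genes). Ptpn6, the gene of SHP-1, shows the mirror in footprints: replicates 1, 2 and 3 had 517, 471 and 447 CPM in WT against 433, 479 and 501 CPM in KO. The spread between libraries may therefore understate that between mice, and each call is given from the plain fit and from a fit with replicate numbers blocked. In 9 of 40 combinations of gene, assay and genotype the SD was below the SD that read counting alone gives, including both footprint groups of Ptpn22 and all 4 groups of Ubash3b.

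In RNA-seq 1 of the 10 genes rose in the libraries labelled KO, Ptpn22, and 1 fell, Ubash3b (edgeR quasi-likelihood test, FDR under 0.05 over 13652 genes). Of all genes tested, 3.48% were called higher and 3.43% lower. In footprints 2 rose, Ptpn22 and Ptprc, and 1 fell, Ubash3b, where 9.25% of 13509 genes were called higher and 8.34% lower. With the block, 0 of the 10 were called in RNA-seq (background 0.806%), and 1 was called in footprints, Ptpn22 (background 3.02%). Beside that 0, the blocked edgeR fit of RNA-seq gave 2 of the 10 an unadjusted p under 0.05 (1 higher, 1 lower), and DESeq2 without the block called 1, Ptpn22. The 10 genes had a median log2 fold change of 0.12 in RNA-seq and 0.11 in footprints, against -0.00 and -0.01 over all genes tested.

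**Figure D1:**
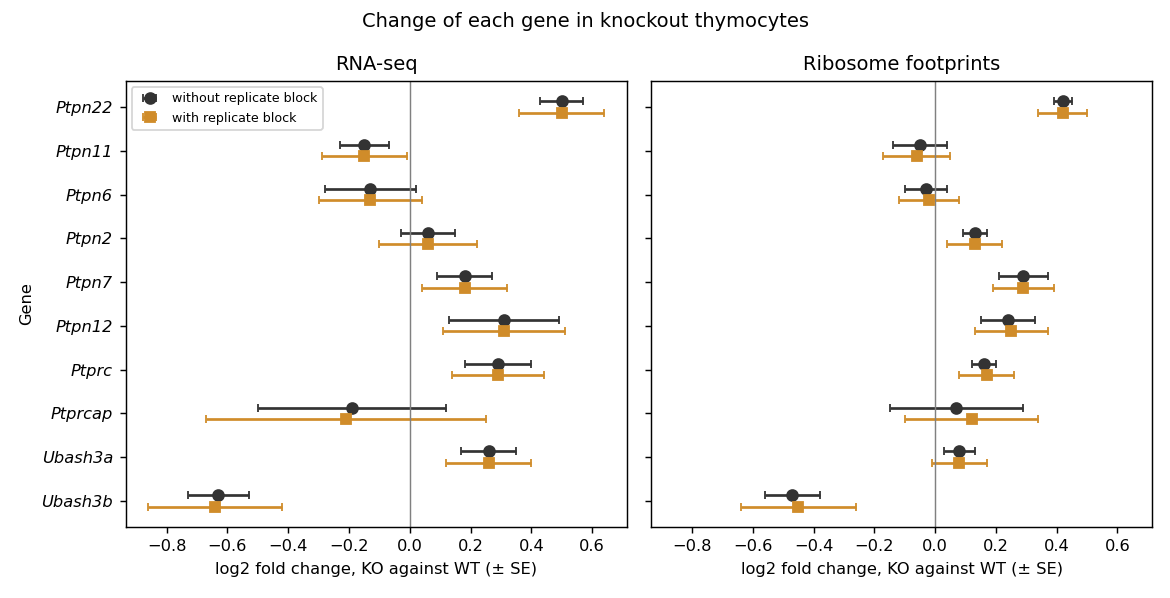
Log2 fold change of each of the 10 genes, KO against WT, in RNA-seq (left) and footprints (right). Circles are the plain fit, squares the blocked fit, and bars are the SE. Ptpn22 lies to the right of 0 in all 4 fits (0.42 to 0.50), Ptpn11 and Ptpn6 lie near 0, and Ubash3b lies to the left with bars that widen with the block.

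Ptpn22 (ENSMUSG00000027843.13, chromosome 3) encodes PEP, also known as LYP in humans, a cytoplasmic phosphatase that removes activating phosphates from LCK and ZAP70. Its RNA-seq level was 142, 132 and 125 CPM in the WT libraries and 176, 191 and 198 CPM in those labelled KO. Every KO library lay above every WT library. The log2 fold change was 0.50 (SE 0.07, edgeR FDR 0.0164), a 1.42-fold rise. That call was lost with the block (FDR 0.161) and without replicate 2 or replicate 3 of either genotype, where the change stayed between 0.46 and 0.50 (FDR 0.0543 to 0.0689).

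In footprints Ptpn22 had 135, 137 and 138 CPM in WT and 185, 182 and 180.2 CPM in KO. The groups again did not overlap, and the 3 WT values differed by less than their counting error, with an SD of 1.38 CPM where counting alone gives 3.08 CPM. The log2 fold change was 0.42 (SE 0.03, edgeR FDR 0.000769), a 1.34-fold rise that ranked 92 by p among 13509 genes and 1199 from the top by fold change. With the block the change was the same at a larger SE (0.08, FDR 0.028, 95% interval 0.23 to 0.60). It was called without any 1 of the 6 footprint libraries, at FDR 0.00502 to 0.00784. The authors' deposited table also lists Ptpn22 as higher in both assays, with adjusted p 9.99e-05 in RNA-seq and 3.64e-09 in footprints.

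Ptpn11 (ENSMUSG00000043733.14, chromosome 5) encodes SHP-2, a phosphatase with SH2 domains that mostly promotes signalling to Ras and ERK, and it is the other known target among the 10. It had 145, 156 and 165 CPM in WT RNA-seq and 150.4, 140.4 and 130.5 CPM in KO. Footprint values were 90.6, 83.2 and 100.4 CPM in WT and 88.1, 95 and 78.1 CPM in KO. In both assays the genotypes overlapped. The log2 fold change was -0.15 in RNA-seq (SE 0.08, edgeR FDR 0.31) and -0.05 in footprints (SE 0.09, edgeR FDR 0.759). Its 95% interval in footprints reached from -0.27 to 0.17, or to 0.19 with the block, so a rise of the size seen for Ptpn22 lies outside it.

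Both known targets were also compared directly within each library, where the scaling of libraries has no part. The log2 ratio of Ptpn22 to Ptpn11 reads was -0.03, -0.25 and -0.41 in WT RNA-seq and 0.23, 0.44 and 0.60 in KO. In footprints it was 0.58, 0.72 and 0.46 in WT and 1.07, 0.94 and 1.21 in KO. KO libraries lay above WT libraries in both assays, by 0.65 in RNA-seq and 0.49 in footprints (two-sided exact permutation test, p = 0.1 in each, the smallest p that 3 against 3 allows). As a pair of relatives, Ptpn6 and Ptpn11 kept overlapping ratios, with differences of 0.02 and 0.05 (exact permutation p = 1 in each assay). Of 3 gene pairs compared in this way in both assays, 6 tests in all, with Benjamini-Hochberg adjustment the smallest p was 0.15 (exact permutation test). The test takes the libraries of an assay as exchangeable, yet the ratios of same-numbered WT and KO libraries mirror each other too. Its p-values may therefore not reflect spread between mice, and no test that keeps the replicate numbers together was made.

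**Figure D2:**
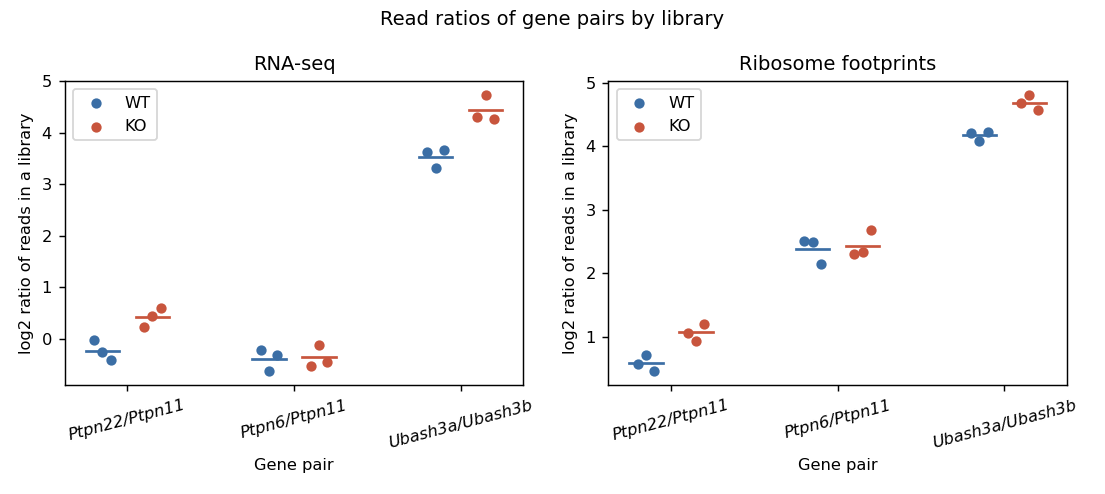
Log2 ratio of reads of 2 genes within each library, for 3 gene pairs, in RNA-seq (left) and footprints (right). Points are libraries, blue for WT and red for KO, and lines are group means. For Ptpn22/Ptpn11 and Ubash3a/Ubash3b the 3 KO libraries lie above the 3 WT libraries in both assays, and for Ptpn6/Ptpn11 they overlap.

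Ptpn6 (ENSMUSG00000004266.15, chromosome 6) encodes SHP-1, which is recruited to inhibitory receptors and dampens TCR signals. Its RNA-seq values were 125, 101 and 134 CPM in WT and 105, 129.8 and 95.4 CPM in KO, and its footprint values are given above. Neither assay separated the genotypes. The log2 fold change was -0.13 (SE 0.15, edgeR FDR 0.645) in RNA-seq and -0.03 (SE 0.07, edgeR FDR 0.846) in footprints, with a 95% interval of -0.20 to 0.15 in footprints.

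Ptprc (ENSMUSG00000026395.16) encodes CD45, the receptor-type phosphatase that covers the surface of lymphocytes. It lies on chromosome 1 beside the deleted pair, with no protein-coding gene between them in RefSeq (GRCm38.p6). RNA-seq gave 3358, 3429.8 and 2772 CPM in WT and 3717, 3598 and 4356 CPM in KO. Its log2 fold change of 0.29 (SE 0.11) missed the threshold there (edgeR FDR 0.181). Footprints gave 3857, 4008 and 3781 CPM in WT and 4394, 4215 and 4449.5 CPM in KO. The groups did not overlap in either assay, and the footprint rise was 1.12-fold (log2 fold change 0.16, SE 0.04, edgeR FDR 0.0399). This small rise was lost with the block (FDR 0.393), in DESeq2 (0.0528 after adjustment), when no filter on counts was set (edgeR FDR 0.141), in a joint fit of both assays (0.252) and without any 1 of the 6 libraries (0.066 to 0.124). The authors' deposited table lists it as higher in footprints, with adjusted p 0.00968. Whether its position beside the deletion has a part in this was not tested.

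Ptprcap (ENSMUSG00000045826.9, chromosome 19) encodes the small membrane protein that associates with CD45 and is no phosphatase itself. It had 6 to 16 reads per RNA-seq library, 1.24 to 2.38 CPM in WT and 1.17 to 2 CPM in KO. Footprints held 127 to 447 reads, with 25.6, 23 and 15.8 CPM in WT and 19.1, 22.1 and 31.2 CPM in KO. The genotypes overlapped in both assays (log2 fold change -0.19, SE 0.31, and 0.07, SE 0.22; edgeR FDR 0.79 and 0.857). Its 95% interval with the block in RNA-seq, -1.21 to 0.80, includes changes as large as that of Ptpn22 in both directions, which could not be detected at this depth.

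Ptpn7 (ENSMUSG00000031506.11) encodes HePTP, a phosphatase of lymphocytes that acts on the MAP kinases ERK and p38. It also lies on chromosome 1, with 28 protein-coding genes between it and Mir181a-1 in RefSeq. Levels were 228, 196 and 224 CPM in WT RNA-seq and 232, 271 and 235 CPM in KO. In footprints they were 208, 184 and 180.3 CPM in WT and 213, 242 and 246 CPM in KO. All KO values lay above all WT values in both assays, and the gap was narrowest between the replicate 1 libraries. The log2 fold change was 0.18 (SE 0.09, edgeR FDR 0.273) in RNA-seq and 0.29 (SE 0.08, edgeR FDR 0.0506) in footprints. The footprint value sat at the threshold: it passed in DESeq2 (0.0132 after adjustment), when no filter on counts was set (edgeR FDR 0.0195) and in the joint fit (0.0433), and missed it with the block (0.18). Without replicate 1 of WT or of KO it passed too (0.0362 and 0.037). The authors' deposited table lists it as higher in footprints, with adjusted p 0.0137.

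Ptpn2 and Ptpn12 were the remaining cytoplasmic phosphatases, and neither was called. Ptpn2 (ENSMUSG00000024539.17) encodes TC-PTP, which acts on JAK and STAT proteins and on LCK. Its footprint level was 62.5, 62.2 and 65.7 CPM in WT and 70.5, 70.5 and 66.5 CPM in KO, without overlap (log2 fold change 0.13, SE 0.04, edgeR FDR 0.0751, or 0.538 when blocked). In RNA-seq the genotypes overlapped at 33.6 to 39.1 CPM in WT and 36.5 to 42 CPM in KO (log2 fold change 0.06, SE 0.09). Ptpn12 (ENSMUSG00000028771.13) encodes PTP-PEST, a phosphatase of adhesion and cytoskeletal proteins related to PEP. It had 24.9 to 37.5 CPM in WT and 32.5 to 45.4 CPM in KO RNA-seq, and 31.3 to 37.6 CPM in WT and 37.2 to 44.9 CPM in KO footprints, overlapping in both. The log2 fold changes of 0.31 and 0.24 had SEs of 0.18 and 0.09 (edgeR FDR 0.351 and 0.124).

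The UBASH3 pair showed opposite signs in RNA-seq. Ubash3a (ENSMUSG00000042345.15, also called STS-2 or TULA) and Ubash3b (ENSMUSG00000032020.15, STS-1 or TULA-2) encode related proteins with a histidine phosphatase domain that restrain ZAP70 and SYK. STS-1 is the more active enzyme of the pair. Ubash3b had 12.4, 13.8 and 12.5 CPM in WT RNA-seq and 8.78, 7.34 and 8.61 CPM in KO, from 31 to 99 reads per library. Footprints gave 8.93, 8.9 and 8.15 CPM in WT and 6.12, 6.11 and 7.12 CPM in KO, from 29 to 159 reads. All KO values lay below all WT values in both assays. The log2 fold change was -0.63 (SE 0.10, edgeR FDR 0.0215) in RNA-seq and -0.47 (SE 0.09, edgeR FDR 0.0153) in footprints, falls to 0.646 and 0.723 of the WT level.

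Both Ubash3b calls were lost with the block (edgeR FDR 0.316 and 0.284) and under DESeq2 (adjusted p 0.156 and 0.197). The RNA-seq call was also lost without any 1 library (0.0593 to 0.0816), and the footprint call without replicate 1 or 2 of either genotype (0.0527 to 0.0824). The within-group SDs were 0.441 to 0.785 CPM, each below what counting alone gives in its own group (0.771 to 1.37 CPM). The authors' deposited table does not call Ubash3b in either assay, with adjusted p 0.174 in RNA-seq and 0.22 in footprints.

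Ubash3a had 154, 138 and 158 CPM in WT RNA-seq and 175, 196 and 168 CPM in KO, without overlap. The change of 0.26 on the log2 scale (SE 0.09) missed the threshold (edgeR FDR 0.131), except in the joint fit of all libraries (0.0453). In footprints it had 165, 152 and 153 CPM in WT and 157, 171 and 169 CPM in KO, which overlapped (log2 fold change 0.08, SE 0.05, edgeR FDR 0.327). The log2 ratio of Ubash3a to Ubash3b reads within a library was 3.54 ± 0.19 in WT and 4.45 ± 0.26 in KO RNA-seq (SD, n = 3), a difference of 0.91 (exact permutation p = 0.1). In footprints it was 4.18 ± 0.07 in WT and 4.69 ± 0.12 in KO (SD, n = 3), a difference of 0.51 (exact permutation p = 0.1). These ratios compare reads and not transcripts, since gene length differs. The mirror limits their permutation p-values as it does for Ptpn22 and Ptpn11.

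**Figure D3:**
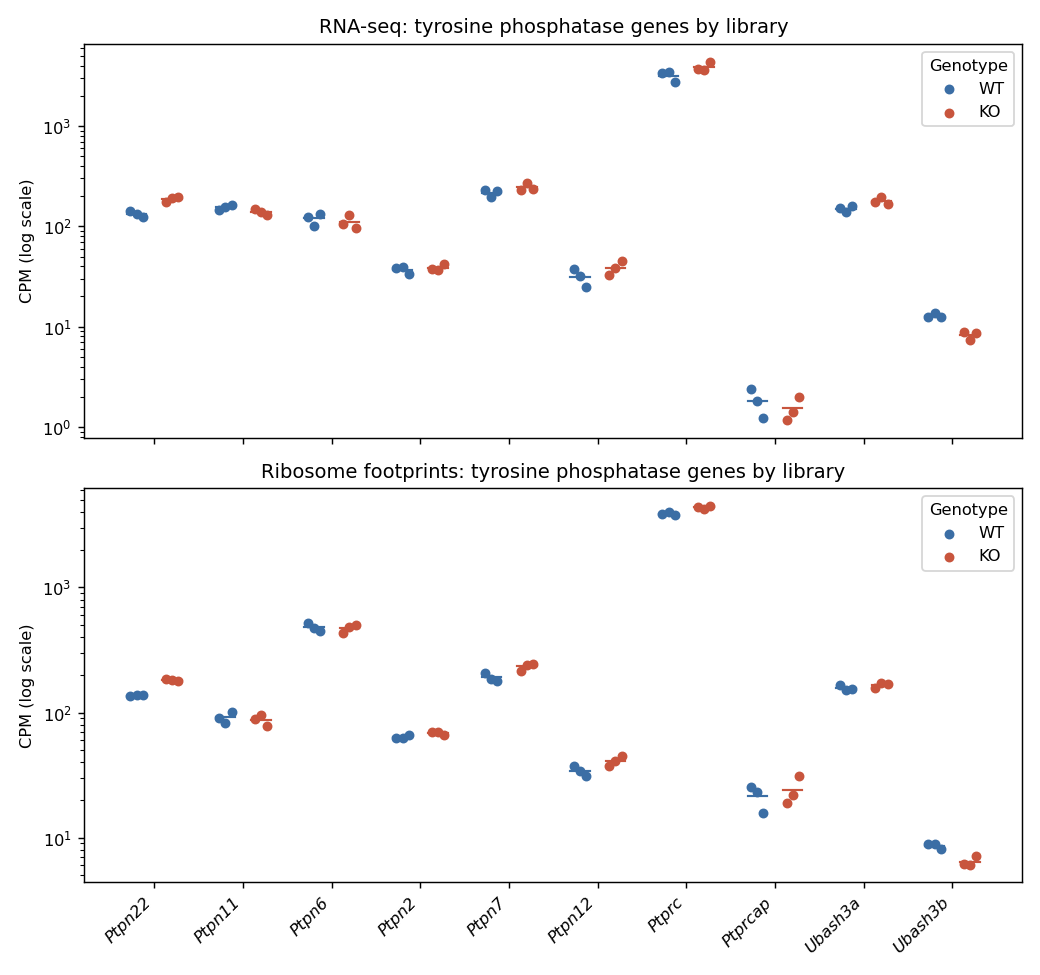
CPM of each of the 10 genes in every library, on a log scale, for RNA-seq (top) and footprints (bottom). Points are libraries in order of replicate number, blue for WT and red for KO, and lines are group means. Ptpn22 and Ubash3b are the genes whose genotypes separate most clearly, with KO values of Ubash3b below 9 CPM in RNA-seq.

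Without overlap between genotypes in RNA-seq, 4 of the 10 were higher in KO and 1 was lower, where 15.5% and 15.4% of all genes were. The same counts held in footprints, 4 higher and 1 lower, against 18.5% and 19.6% of all genes. In RNA-seq the 4 were Ptpn22, Ptpn7, Ptprc and Ubash3a, and in footprints Ptpn22, Ptpn2, Ptpn7 and Ptprc.

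For translation, meaning the KO effect in footprints beyond that in RNA, 0 of the 10 genes were called (edgeR interaction test, FDR under 0.05), where 0.211% of 11854 genes were, or 0.0169% with the block. An unadjusted p under 0.05 was reached by 0 of the 10 in either edgeR fit, and DESeq2 called 0 as well. The interaction was -0.09 for Ptpn22 (SE 0.09, FDR 0.696, 95% interval -0.28 to 0.10) and 0.09 for Ptpn11 (SE 0.13, FDR 0.796, 95% interval -0.18 to 0.37). Both intervals include 0. Ubash3a had the largest negative value, -0.18 (SE 0.10, FDR 0.487), and Ptprcap the largest positive, 0.27, with an SE of 0.56.

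Footprint CPM per RNA-seq CPM ranged over the 10 genes from 0.588 to 11.8 in WT and from 0.62 to 15.8 in KO. In WT, Ptprcap had 11.8 times as many footprint CPM as RNA-seq CPM, which put it at percentile 99.7 of 11854 genes, and Ptpn6 had 3.99 times as many, at percentile 96.2. In KO the same genes stood at percentiles 99.8 and 96.3. Ptpn2 followed at percentile 77.2 in WT, and Ptpn22, Ptpn12, Ptprc, Ubash3a and Ptpn7 lay between percentiles 50.6 and 64.1. Ptpn11 and Ubash3b were lowest, at 0.588 and 0.67 footprint CPM per RNA-seq CPM and percentiles 33.3 and 38.6. These ratios compare group means of separate libraries and carry no test. The Ptprcap value rests on 37 RNA-seq reads in WT. RNA-seq reads can fall anywhere in an mRNA and footprints mainly in its coding part, and lengths were not used here. Of the counted reads, 26.97% to 28.46% in RNA-seq and 72.25% to 73.08% in footprints were assigned to genes. Whether this difference affects the ratio of any gene was not tested.

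**Figure D4:**
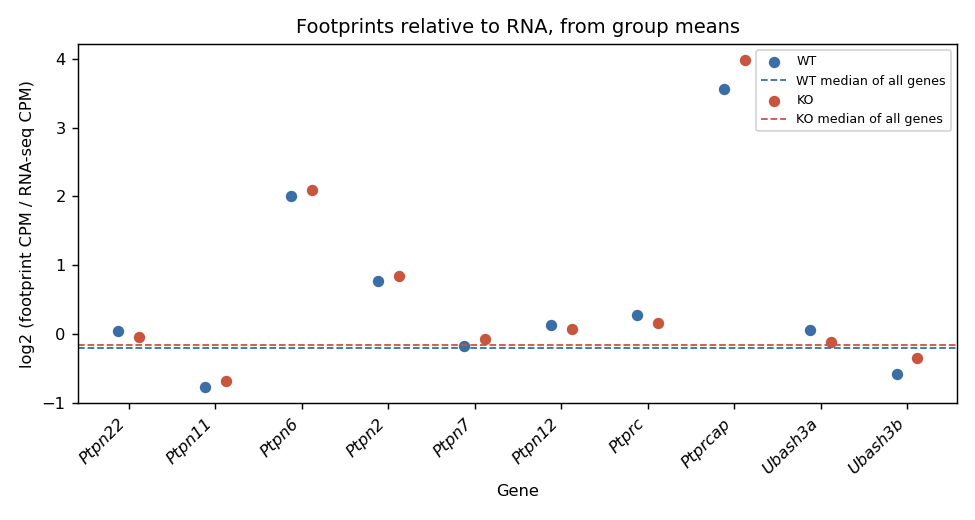
Log2 of footprint CPM over RNA-seq CPM for each of the 10 genes, from group means, blue for WT and red for KO, with dashed lines at the median of 11854 genes (-0.20 in WT, -0.16 in KO). Ptprcap (3.57 in WT) and Ptpn6 (2.00 in WT) lie far above the medians. The genotypes are furthest apart for Ptprcap (3.57 in WT, 3.98 in KO) and Ubash3b (-0.58 in WT, -0.35 in KO).

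The genes that these phosphatases meet were taken as a list of 41 TCR signalling partners, all of which passed the low-count filter in both assays. In RNA-seq 2 rose and 0 fell in KO, where 3.48% and 3.43% of all genes were called, and the median log2 fold change was -0.02 against -0.00 over all genes tested. In footprints 7 rose and 2 fell, where 9.25% and 8.34% of all genes were called, and the median was 0.08 against -0.01. For the falls in RNA-seq, 5 had an unadjusted edgeR p under 0.05 and DESeq2 called 0 in either direction. With the block 0 were called in RNA-seq (2 at an unadjusted p under 0.05; background 0.806%) and 1 in footprints (background 3.02%), Cd4, the coreceptor that brings LCK to the TCR. Footprints of Cd4 averaged 1953 CPM (SD 123) over 3 WT and 2902 CPM (SD 174) over 3 KO libraries, a rise of 0.57 on the log2 scale (edgeR FDR 0.00335, blocked 0.0121). Cd4 had a log2 fold change of 0.19 in RNA-seq (edgeR FDR 0.0685). Syk, a kinase related to ZAP70 and a substrate of STS proteins, rose in footprints by 0.81 (edgeR FDR 0.045, with the block 0.0582).

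Smaller footprint rises were called for Cd5 (0.31), an inhibitory receptor tuned to TCR signal strength, Nck1 (0.23), an adaptor to the cytoskeleton, and Themis (0.23), a thymocyte protein that binds SHP-1. The remaining footprint calls, named after their values were seen, were rises of Lcp2 (0.18) and Rasgrp1 (0.19) and a fall of Lck (-0.12), each lost with the block (edgeR FDR 0.292 to 0.519). The ubiquitin ligase gene Cbl fell in footprints by 0.23 on the log2 scale. In RNA-seq Gab3 (0.58), an adaptor of SHP-2, rose, on 274 reads over all libraries. Its footprint log2 fold change was 0.01 (edgeR FDR 0.974). The calls of Cd5, Nck1, Themis, Cbl and Gab3 were each lost with the block, at edgeR FDR 0.131 to 0.488.

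The other classical tyrosine phosphatases, 31 genes, were taken as a further comparison, and 16 passed the low-count filter in RNA-seq and 24 in footprints. In RNA-seq 0 of 16 rose and 3 fell, against 3.48% and 3.43% of all genes, with 3 higher at an unadjusted edgeR p under 0.05 and 0 called higher by DESeq2. In footprints 1 of 24 rose and 5 fell, against 9.25% and 8.34% of all genes. The median log2 fold change of the list was -0.09 in RNA-seq and -0.17 in footprints, against -0.00 and -0.01 over all genes tested. The exceptional member was Ptprv, which encodes a receptor-type phosphatase known from bone and testis. RNA-seq of Ptprv averaged 30.6 CPM (SD 4.3) over 3 WT and 5.32 CPM (SD 1.19) over 3 KO libraries, a log2 fold change of -2.55 (edgeR FDR 0.00216, blocked 0.000258). Its footprints averaged 10.2 CPM (SD 0.995) and 1.03 CPM (SD 0.332), a log2 fold change of -3.21 (edgeR FDR 0.000283, blocked 0.000204).

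Ptprv overlaps Ptpn7 on chromosome 1 in RefSeq, and how reads in both genes were counted, by strand or not, is not stated in these sources. The values of both genes are therefore uncertain. The direction of Ptpn7, higher in KO, was opposite to that of Ptprv. Ptpra, which encodes a receptor-type phosphatase that activates SRC family kinases, rose in footprints. It averaged 146 CPM (SD 4.63) over 3 WT and 191 CPM (SD 5.53) over 3 KO libraries, 0.38 higher on the log2 scale (edgeR FDR 0.00255, blocked 0.0424). It had a log2 fold change of 0.25 in RNA-seq (edgeR FDR 0.166). Its rise in footprints was of a size like that of Ptpn22, and no test of a difference between these genes was made.

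Ptprf, which encodes the adhesion receptor LAR, fell in both assays (-0.50 and -0.27, edgeR FDR 0.0487 and 0.0339), and Ptpn14 fell in RNA-seq (-0.31, edgeR FDR 0.0172). Ptpn1, the gene of PTP1B and the nearest relative of Ptpn2, fell in footprints (-0.20, edgeR FDR 0.0471), as did the low-level Ptprg (-0.90) and Ptprz1 (-1.41). These calls were lost with the block (edgeR FDR 0.143 to 0.461). Ptprs, also among the 5 most abundant of the list in RNA-seq, was not called, with log2 fold changes of -0.25 and -0.14. Markers of thymic epithelium, a cell type that can express receptor-type phosphatases, summed to 18.9 to 22.2 CPM in WT and 14.2 to 17.3 CPM in KO RNA-seq, and to 75.5 to 82.3 and 59.8 to 70.5 CPM in footprints. All 5 markers had reads in both assays and 1 was called lower in each, Krt5 in RNA-seq and Epcam in footprints. Their part in the falls of Ptprf, Ptprg and Ptprz1 was not tested.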

How the data were processed

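RNA-seq and ribosome footprints of thymocytes were deposited by the authors as whole-number counts for Ensembl genes, in a table for each assay whose name calls them adjusted, without saying what was adjusted. FastQC, Bowtie2 2.5.1, STAR 2.7.10a, HTSeq 2.0.3 and DESeq2 1.40.2 are named, without roles, per the submitters' processing notes. The build, the annotation and any use of strand are not stated there. Also deposited by the authors were log2 fold changes and p-values of KO against WT, per the file headers. The 12 columns of per-library values beside them were not used. Of the counted reads, 50.9% to 57.1% in RNA-seq and 5.32% to 6.39% in footprints lay in no feature. Reads with several alignments made up 13.1% to 20.46% in RNA-seq and 17.67% to 18.62% in footprints. Both classes and the ambiguous reads were left out.

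Samples were grouped by assay and genotype from their titles. The 10 genes, the lists of partners and relatives and the markers were chosen with earlier results of these data known. The genes named were all 10, Mir181a-1, of each list up to 8 called genes with the largest changes, and the 5 most abundant other phosphatases; 1 partner gene that the rule names is not reported here. The deposited counts of either assay were fitted separately by edgeR 4.0.16 under R 4.3.3 (TMM, filterByExpr with a minimum count of 10, quasi-likelihood test, Benjamini-Hochberg adjustment over all genes), and translation was the interaction between genotype and assay in all 12 libraries. FDR is the adjusted p, the SE is the fold change divided by the root of F, and intervals are 95%. Fits were tested on simulated data without the mirror, with changes larger than those of the 10 genes. That test does not cover mirrored counts or small changes. Within every group, any pair of libraries differed beyond counting noise (chi-square per degree of freedom 3.40 to 12.9), so no library repeats another. Each was taken as 1 replicate, though this does not show that they are independent mice. Whether p-values reflect spread between mice is limited by the mirrored counts. Alternatives were RLE factors, DESeq2 1.42.0, no filter, the replicate block, a joint fit, an FDR under 0.1 and the omission of each library.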

Additional observations from a re-analysis of the deposited data

How the results depend on the processing

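Of 390 values of the 10 genes under the alternatives, 343 kept direction and side of the threshold, 29 lost a call, 6 gained one and 12 changed sign, the last with 1 library left out and at FDR 0.787 or more. These were Ptpn2 in RNA-seq (-0.00 and -0.01 without WT or KO replicate 3, range up to 0.10), Ptprcap in RNA-seq (0.03 and 0.00 without WT or KO replicate 1, down to -0.50) and in footprints (-0.09 and -0.07 without replicate 3, up to 0.22), Ptpn11 in footprints (0.02 and 0.01 without replicate 3, down to -0.12), Ptpn6 in footprints (0.03 and 0.04 without replicate 1, down to -0.08) and Ptpn12 for translation (0.06 and 0.07 without RNA-seq replicate 3, down to -0.22). RLE factors changed no call.

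Same-numbered WT and KO libraries deviated in opposite directions in the adjusted counts. Whether the numbers mark pairs whose shared part was removed by the adjustment is not stated and was not tested. The libraries of an assay may therefore hold fewer independent deviations than their number. With the replicate block, RNA-seq had 110 calls against 943 without it, 408 in footprints against 2376, and 2 for translation within each assay against 25. DESeq2 gave 532, 1235 and 44, the joint fit 1561 in RNA-seq, and an FDR under 0.1 gave 1742 in RNA-seq and 131 for translation. What causes these shifts was not tested. Omitting any 1 library left 215 to 323 calls in RNA-seq and 1035 to 1554 in footprints, the lowest without WT replicate 1 and KO replicate 2. For translation 6 to 24 were left, the lowest when KO replicate 1 or 2 of the footprints was omitted, and all these fits hold fewer samples. Counting limits Ptprcap in RNA-seq and Ubash3b in both assays.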
